A study of Rattus norvegicus with 6 samples.

Results

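The genes described here handle glutamate at the cell surface and inside the cell: the uptake transporters Slc1a2 (ENSRNOG00000005479) and Slc1a3 (ENSRNOG00000016163), the cystine and glutamate exchanger Slc7a11 (ENSRNOG00000010210), glutamine synthetase Glul (ENSRNOG00000049560), and the glutamate decarboxylases Gad1 (ENSRNOG00000000007) and Gad2 (ENSRNOG00000018200). These 6 genes were taken from a list of Ensembl IDs. The list uses no measured value as a threshold, but it was drawn up with earlier results of these data known. All 6 were found among the 32883 gene rows of the count files. The same 6 were among the 15919 genes with enough reads to be tested. The count files give no gene symbols, so each symbol rests on a hand-made pairing of 6 IDs with 6 names that no file used here could check.

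The cells were spinal cord ependymal stem cells of the rat (epNSPCs), the cells that line the central canal and can act as stem and progenitor cells in culture. The 3 control libraries came from cells in neurobasal media, and the 3 glutamate libraries from cells in the same media with 500 uM glutamate. All 6 were taken at day 2, and the study asked how these cells respond to an excitotoxic level of glutamate, one that damages neurons by overstimulation. The labels give neither the strain, age or number of rats nor whether the replicates were separate cultures, and the p-values therefore rest on the scatter among these 6 libraries alone, which may be technical. RNA was read in bulk from cultured cells, where a change in the share of one cell type and a change in RNA per cell cannot be told apart. Because the files carry no names, the labelled cell type was not checked against marker genes.

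Glutamate released outside cells is cleared mainly by sodium-driven transporters of glial cells, of which Slc1a3 (GLAST) and Slc1a2 (GLT1) are the main ones in the brain and spinal cord. Inside glia, glutamine synthetase joins glutamate to ammonia to make glutamine, whereas glutamate decarboxylase, typical of inhibitory neurons, turns glutamate into the transmitter GABA. Slc7a11 encodes xCT, the transport subunit of system xc-, which brings in cystine for glutathione synthesis and sends glutamate out. High glutamate outside the cell is known to compete with cystine for this exchanger.

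With glutamate, Slc7a11 rose 8.11-fold, Slc1a3 rose 1.60-fold, Glul rose 1.38-fold and Gad2 rose 1.72-fold. Slc1a2 and Gad1 did not pass the test, and 0 of the 6 genes fell. Of the 6, 4 were therefore called as rises, where 14.1% of all tested genes were called in that direction, 13.7% as falls and 27.7% in either (edgeR quasi-likelihood test, Benjamini-Hochberg adjusted p below 0.05). The share called in either direction depended on level, given here in CPM (normalised read counts). It was 14.6% of genes averaging below 1 CPM and 33.5% of those at 100 CPM or more. Slc1a3 and Glul are in the higher class, and Gad1 and Gad2 in the lower. The median log2 fold change of the 6 genes was 0.57, against -0.01 over all tested genes. The rise of Gad2 was the least secure of the 4, since the call was lost in 4 of 6 fits that left out 1 library.

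**Figure D1:**
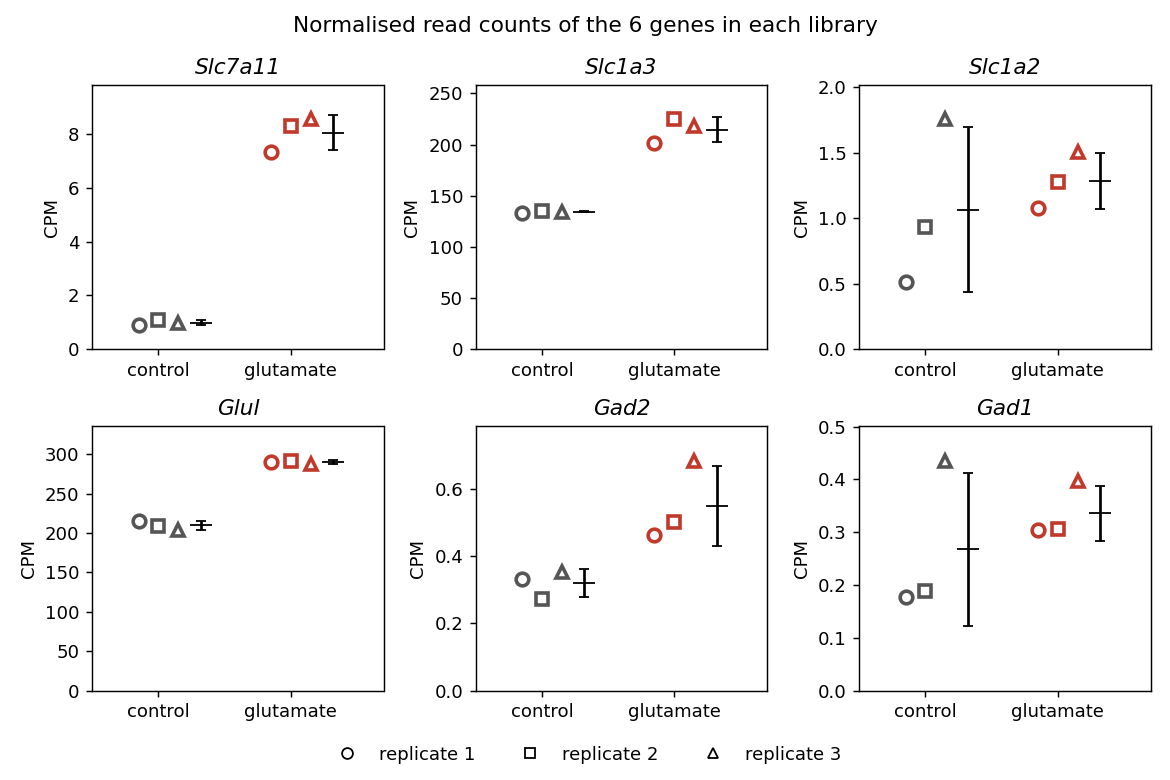
CPM (normalised read counts) of the 6 genes by group, with 1 symbol per library (circle, square and triangle for replicates 1, 2 and 3) and a dash with bars for the mean and SD of the 3 libraries; each vertical axis starts at 0. The groups are apart for Slc7a11, Slc1a3, Glul and Gad2, while control replicate 3 lies above all other libraries for Slc1a2 and Gad1.

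The promoters of the 3 genes with the smallest adjusted p-values are shown because these genes rose together. Each is the stretch of 250 bases before an annotated RefSeq start, 5′ to 3′ on the gene's own strand, in assembly GRCr8 (the counts were made on another assembly, rn6). Capitals mark a match to the kappa B consensus motif.
Slc7a11, chr2:136668265-136668514, minus strand: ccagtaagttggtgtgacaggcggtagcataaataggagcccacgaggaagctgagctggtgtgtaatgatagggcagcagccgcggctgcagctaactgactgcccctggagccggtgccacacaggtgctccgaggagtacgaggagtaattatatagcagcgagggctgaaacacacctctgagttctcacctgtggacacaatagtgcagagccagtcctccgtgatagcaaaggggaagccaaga
Slc1a3, first of 3 close starts, chr2:59557809-59558058, minus strand: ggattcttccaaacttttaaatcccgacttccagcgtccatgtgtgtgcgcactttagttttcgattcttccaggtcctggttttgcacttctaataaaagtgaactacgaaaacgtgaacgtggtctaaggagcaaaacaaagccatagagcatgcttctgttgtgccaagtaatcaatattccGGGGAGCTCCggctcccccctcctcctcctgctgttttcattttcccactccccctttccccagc
Glul, downstream of its 2 starts, chr13:68575816-68576065, plus strand: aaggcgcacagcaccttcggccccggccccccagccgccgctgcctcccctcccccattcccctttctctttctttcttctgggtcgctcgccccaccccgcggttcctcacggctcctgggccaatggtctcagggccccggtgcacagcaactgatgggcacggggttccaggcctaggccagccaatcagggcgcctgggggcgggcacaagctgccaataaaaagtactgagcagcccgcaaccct

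Across the 10 annotated promoter windows of the 6 genes, 6 motifs were searched on both strands. These were the antioxidant response core TGACNNNGC, the amino acid response core TGATGNAA, the CRE TGACGTCA, the AP-1 site TGANTCA, the E-box CACGTG and the kappa B consensus. The first 5 of these letter strings were found in 0 of the 10 windows. The shares of all 33469 rat promoter windows of this length that hold them were 10.08% for the antioxidant response core, 3.4% for the amino acid response core, 1.59% for the CRE, 6.34% for the AP-1 site and 5.59% for the E-box. The kappa B consensus was found in the 3 windows of Slc1a3, which overlap and hold the same match, and in 6.33% of all windows. That match, GGGGAGCTCC, lies at positions -65 to -56 before the first start. A looser spelling of the motif, tried first, also matched windows of Slc1a2 and Gad2. The window of the gene that rose most, Slc7a11, and those of Glul, Slc1a2, Gad1 and Gad2 held 0 matches to the 6 motifs as searched. These are descriptions of letters in short windows and say nothing of which factors were bound.

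Among the uptake transporters, Slc1a3 was read at over 100 CPM and Slc1a2 at about 1 CPM. CPM (counts per 1000000 reads of the TMM-scaled library) is not corrected for gene length, so it compares libraries within a gene and not genes with each other. Slc1a3 stood at 133.7, 134.8 and 134.5 CPM in control replicates 1, 2 and 3 and at 201.2, 224.6 and 218.3 CPM in the glutamate libraries. The lowest glutamate library was thus 1.49 times the highest control library, and the 3 control values were nearly equal. The group means were 134.3 ± 0.6 and 214.7 ± 12.1 CPM (SD, n = 3 each). The log2 fold change of Slc1a3 was 0.68 (standard error 0.06, edgeR adjusted p = 4.1e-05), with a 95% interval of the fold from 1.46 to 1.75.

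The 3 control libraries spread less in Slc1a3 than counting alone would lead to on average, with a coefficient of variation (CV, the SD as a share of the mean) of 0.417% against 0.649% from counting error. In the glutamate libraries the CV of Slc1a3 was 5.65%, against 0.52% from counting error. The difference in spread between the groups was not tested.

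Slc1a2 varied widely among the controls. It was read 92, 168 and 298 times in control replicates 1, 2 and 3, or 0.511, 0.935 and 1.75 CPM. Its glutamate libraries held 191, 221 and 251 reads, or 1.08, 1.28 and 1.51 CPM. All 3 glutamate values lay inside the range of the control values, with control replicate 3 the highest of the 6 libraries and control replicate 1 the lowest.

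Slc1a2 averaged 1.07 ± 0.63 CPM in control and 1.29 ± 0.22 CPM with glutamate (SD, n = 3 each). The fitted log2 fold change was 0.27 (standard error 0.41, edgeR adjusted p = 0.656), with a 95% interval of the fold from 0.613 to 2.38, which includes both no change and a change as large as that of Slc1a3. The control CV of 59.2% was far above the 7.33% that counting error gives at this depth. Without control replicate 3 the log2 fold change was 0.83 (standard error 0.26, edgeR adjusted p = 0.0375) and passed the test, and without control replicate 1 it was -0.063 (edgeR adjusted p = 0.877).

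The balance of the 2 transporters was also compared within each library, which removes library size and gene length from the difference between groups. The log2 ratio of Slc1a2 to Slc1a3 was -8.00, -7.15 and -6.25 in control replicates 1, 2 and 3 and -7.53, -7.45 and -7.17 in glutamate replicates 1, 2 and 3. The glutamate ratios again lay inside the control range. The means were -7.14 ± 0.87 and -7.38 ± 0.19 (SD, n = 3 each), a difference of -0.25 (exact two-sided permutation p = 0.7, adjusted 0.7 over 2 ratios, where 0.1 is the smallest p that 3 against 3 libraries allow). A shift in the balance of Slc1a2 and Slc1a3 was not detectable in these libraries, and the difference turned to 0.19 without control replicate 3.

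Slc7a11, the exchanger subunit, went from 163, 198 and 164 reads in control replicates 1, 2 and 3 to 1298, 1434 and 1421 reads with glutamate. In CPM this was 0.906, 1.10 and 0.965 in the control libraries and 7.32, 8.28 and 8.53 in the glutamate libraries. The groups were far apart, with the lowest glutamate library at 6.64 times the highest control library. The libraries of each group lay close together, with a highest value 1.22 times the lowest in control and 1.17 times with glutamate.

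The means of Slc7a11 were 0.991 ± 0.101 CPM in control and 8.04 ± 0.64 CPM with glutamate (SD, n = 3 each). The log2 fold change was 3.02 (standard error 0.12, edgeR adjusted p = 4.17e-07), with a 95% interval of the fold from 6.70 to 9.81. The control CV of 10.1% was near the 7.56% that counting error gives. Among the 2239 genes called as rises, whose median change was 1.48-fold, 86 had a larger log2 fold change than Slc7a11. With a 1.5-fold change as the null hypothesis, Slc7a11 was the 1 gene of the 6 that passed (edgeR glmTreat adjusted p = 9.93e-07). The estimates of Slc1a2, Glul and Gad1 lay below 1.5-fold, so these genes could not pass.

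**Figure D2:**
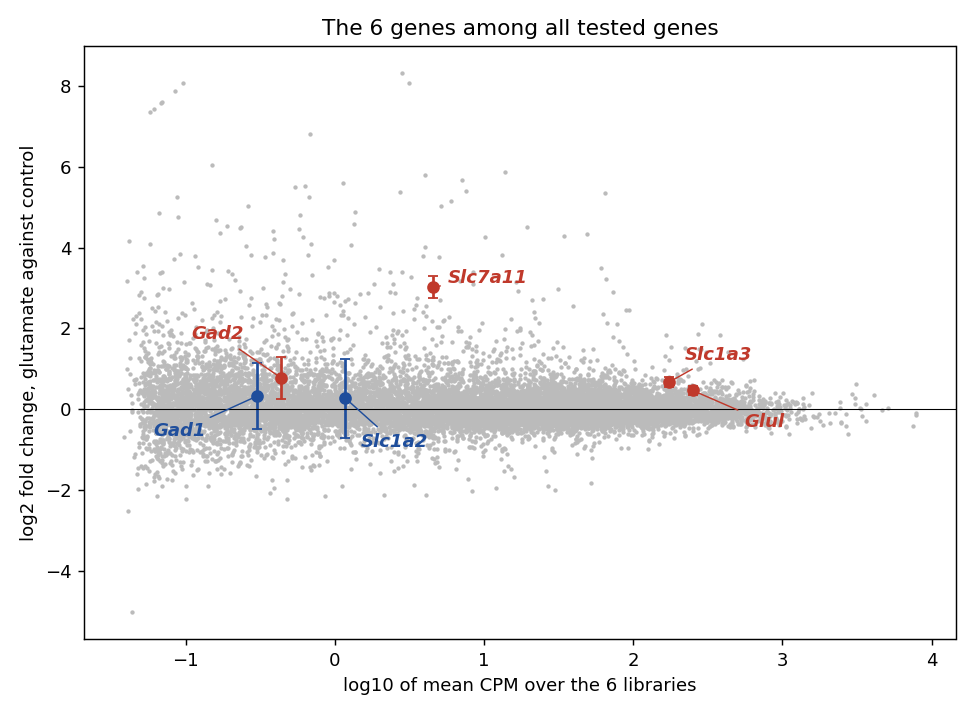
Log2 fold change with glutamate against log10 of the mean CPM for all 15919 tested genes (grey points) and the 6 genes (red if called, blue if not), with bars for the 95% interval of the fold change. Slc7a11 at 3.02 lies above most grey points near it, Slc1a3 and Glul lie to the right with short bars, and the bars of Slc1a2 and Gad1 cross 0.

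The 2 genes whose levels followed Slc7a11 most closely over the 6 libraries, among 10179 other genes averaging 5 CPM or more, were ENSRNOG00000021087 (Pearson r of log2 CPM 0.9997) and ENSRNOG00000036859 (r 0.9992). The 6 points form 2 groups, so these values mostly record the difference between the groups, and 158 genes had an r above 0.99. ENSRNOG00000021087 went from 27.5 ± 1.0 to 65.8 ± 2.4 CPM and ENSRNOG00000036859 from 21.1 ± 0.7 to 34.9 ± 0.5 CPM (SD, n = 3 each). Their log2 fold changes of 1.26 and 0.73 were smaller than that of Slc7a11. None of the 6 genes had a negative log2 fold change, so no such pair was sought for a fall.

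Glul, the glutamine-forming enzyme, was read at 215.3, 209.3 and 203.9 CPM in control replicates 1, 2 and 3 and at 290.6, 291.7 and 287.5 CPM with glutamate. The groups did not overlap, and the lowest glutamate library was 1.34 times the highest control library. The means were 209.5 ± 5.7 and 289.9 ± 2.2 CPM (SD, n = 3 each).

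The log2 fold change of Glul was 0.47 (standard error 0.05, edgeR adjusted p = 0.00017), with a 95% interval of the fold from 1.28 to 1.496. Its glutamate CV of 0.749% was the lowest of the 6 genes in that group, against 0.447% from counting error. RefSeq lists 2 pseudogenes of Glul (Glul-ps1 and Glul-ps2) and 4 other genes (Rgsl1, Rgsl2h, Teddm1b and Teddm1a) that overlap its span of Glul. That span was not compared with the Ensembl gene that was counted. How reads shared with such copies or neighbours were counted is not given in the sources used here, so the level of Glul carries that uncertainty.

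The decarboxylases were read few times in every library, with 32 to 114 reads. Gad2 was read 60, 49 and 60 times in control replicates 1, 2 and 3 and 82, 87 and 114 times with glutamate, or 0.333, 0.273 and 0.353 CPM against 0.462, 0.502 and 0.684 CPM. Every glutamate library was above every control library, and the lowest of them was 1.31 times the highest control.

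The means of Gad2 were 0.320 ± 0.042 and 0.550 ± 0.118 CPM (SD, n = 3 each). The fitted log2 fold change was 0.78 (standard error 0.23, edgeR adjusted p = 0.0344), with a 95% interval of the fold from 1.20 to 2.47. The control CV of 13.1% was about what counting error gives (13.3%), and the glutamate CV was 21.5%, against 10.3% from counting. The adjusted p rose to 0.112 without control replicate 2 and to 0.0501, 0.0703 and 0.134 without glutamate replicates 1, 2 and 3, with log2 fold changes from 0.59 to 0.90.

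Gad1 was read 32, 34 and 74 times in control replicates 1, 2 and 3, or 0.178, 0.189 and 0.436 CPM. In the glutamate libraries it was read 54, 53 and 66 times, or 0.304, 0.306 and 0.396 CPM. As with Slc1a2, control replicate 3 was the highest of all 6 libraries and the glutamate values lay inside the control range.

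The means of Gad1 were 0.268 ± 0.146 and 0.336 ± 0.053 CPM (SD, n = 3 each), with a log2 fold change of 0.33 (standard error 0.36, edgeR adjusted p = 0.524). The 95% interval of the fold, from 0.715 to 2.21, includes the estimate for Gad2. The control CV of Gad1 was 54.4%, against 14.6% from counting error. Without control replicate 3 the log2 fold change of Gad1 was 0.86 (edgeR adjusted p = 0.0504). It was 0.11 without control replicate 1 (adjusted p = 0.850), 0.14 without control replicate 2 (adjusted p = 0.826) and 0.19 without glutamate replicate 3 (adjusted p = 0.788), so Gad1 was called in 0 of its 6 reduced fits.

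Within libraries, the log2 ratio of Gad1 to Gad2 was -0.87, -0.50 and 0.29 in control replicates 1, 2 and 3 and -0.58, -0.69 and -0.77 in glutamate replicates 1, 2 and 3. Control replicate 3 was the 1 library with more Gad1 than Gad2 reads. The means were -0.36 ± 0.59 and -0.68 ± 0.09 (SD, n = 3 each), a difference of -0.33 (exact two-sided permutation p = 0.6, adjusted 0.7 over 2 ratios). That difference rested on control replicate 3, since it was 0.00016 without that library and -0.58 without control replicate 1. The call for Gad2 and its absence for Gad1 are thus no evidence that the 2 enzymes responded differently.

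In both genes without a call, control replicates 3 and 1 lay far apart, by 3.43-fold for Slc1a2 and 2.45-fold for Gad1. In Slc1a2 control replicate 2 lay between them, while in Gad1 it lay near control replicate 1. A gap of at least 2-fold in that direction was found in 597 of the tested genes, or 3.75%, so most genes did not share it. That share covers genes of all levels. The control CV, a different measure that takes no direction, was compared only among genes with few reads. The 2 kinds of share therefore cannot be set against each other. Of the 4574 tested genes averaging below 2 CPM, 7.92% had a control CV above that of Slc1a2 and 10.1% above that of Gad1. Gad2 did not share the 2-fold gap, with a ratio of 1.06. Nor did Slc1a3, Glul and Slc7a11, whose highest control library was at most 1.22 times the lowest. The cause of the spread among the control libraries in these 2 genes was not tested.

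**Figure D3:**
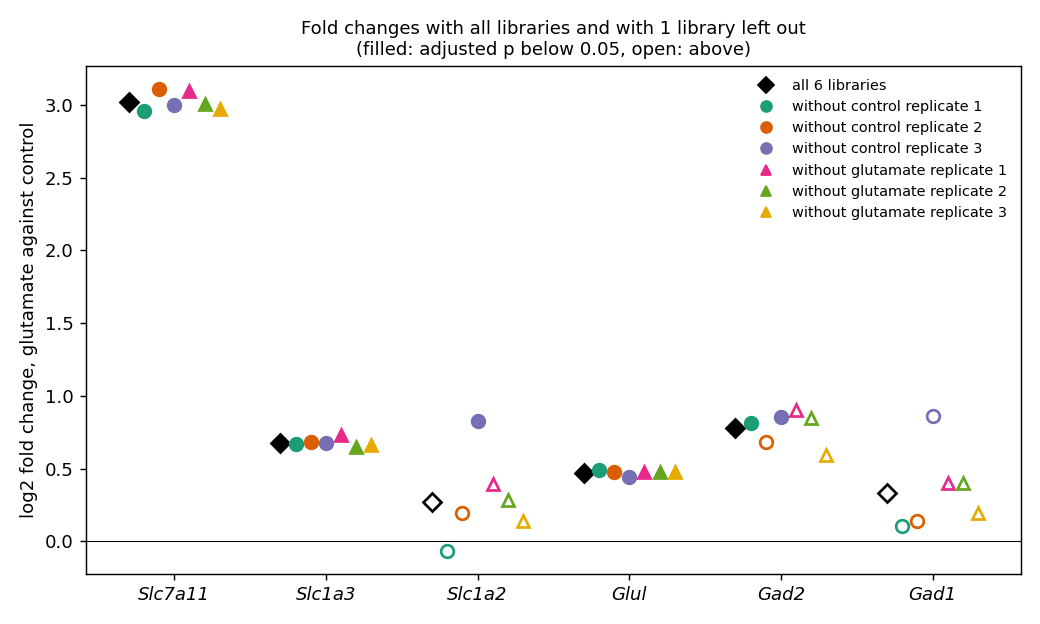
Log2 fold change of each of the 6 genes with all 6 libraries (black diamonds) and with 1 control library (circles) or 1 glutamate library (triangles) left out; filled symbols have an adjusted p below 0.05. Slc7a11, Slc1a3 and Glul stay within narrow ranges and called, Gad2 is called in 2 of its 6 reduced fits (without control replicates 1 and 3), and Slc1a2 runs from -0.063 to 0.83.

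The groups did not overlap in 4 of the 6 genes, all with glutamate above control, where 22.8% of all tested genes showed that order and 46.8% were apart in either. Total counts were 166567977 to 181352365 per library, so 1 CPM stood for 167 to 180 reads. Control replicate 1 differed most from the others of its group over all genes. Without it Slc7a11, Slc1a3, Glul and Gad2 remained called, with log2 fold changes of 2.96, 0.67, 0.49 and 0.81.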

How the data were processed

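The authors deposited 1 table per library of raw read counts per Ensembl gene ID, per the file headers. The submitters' processing notes name Trim Galore 0.6.5, STAR 2.7.8a, SAMtools, featureCounts 2.0.1 and build rn6; for the annotation release, strand setting and shared reads, the handling is not given in the sources used here. The kit was directional, per the labels' protocols. The test was edgeR 4.0.16 (R 4.3.3) over all 6 libraries: filterByExpr (minimum count 10, minimum total 15), TMM scaling, robust dispersions, glmQLFTest and Benjamini-Hochberg adjustment over 15919 genes. The SE is the log2 fold change divided by the square root of F. Ratios used log2 CPM with a prior count of 2. The fit was tested on simulated data. Chi-square statistics between libraries of a group were 19.0 to 160.3 per gene, where counting noise gives 1, so none was a duplicate.

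The 6 genes, all named whether called or not, and all comparisons were chosen with earlier results of these data known. The rule for further genes was the 2 most correlated with the largest change in each direction. Planned lists of pathway genes and cell type markers were not used, because 0 rows of the RefSeq table carry an Ensembl ID. Promoters were matched by symbol, for 6 of 6 genes. Alternatives were RLE or total-count scaling, DESeq2 1.42.0, other low-count filters, a replicate block, a 1.5-fold null, other prior counts and leaving out each library.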

Additional observations from a re-analysis of the deposited data

How the results depend on the processing

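Slc7a11, Slc1a3 and Glul kept their direction and call under both other scalings, DESeq2, both other low-count filters, the replicate block and each left-out library; no scaling moved the median log2 fold change by 0.1. With 1 library left out, log2 fold changes ran from 2.96 to 3.11 for Slc7a11, 0.65 to 0.73 for Slc1a3, 0.45 to 0.49 for Glul, 0.59 to 0.90 for Gad2, 0.11 to 0.86 for Gad1 and -0.063 to 0.83 for Slc1a2. Slc1a2 reversed without control replicate 1 (-0.063, edgeR adjusted p = 0.877) and passed the test without control replicate 3 (0.83). Without that library the Slc1a2 to Slc1a3 ratio difference also reversed, to 0.19, and the Gad1 to Gad2 difference vanished (0.00016), from ranges down to -0.68 and -0.58; the cause was not tested. Of the 6 genes, 3 to 5 were called with 1 library left out and 1 against a 1.5-fold change. Against that change, Slc1a3 (0.68, adjusted p = 0.363) and Gad2 (0.78, adjusted p = 0.949) lost their calls to edgeR's glmTreat. Glul (0.47) also lost its call, but its 1.38-fold estimate lies below 1.5-fold, so it could not pass that test. That test called 534 of all genes, and leaving out 1 library called 2420 to 5584, against 4413. The filter of 1 CPM in 3 libraries removed Gad1 and Gad2. The labels do not say that replicate numbers pair libraries: same-numbered deviations correlated over 0.1 in 2 of 3 pairs, and in each group 2 of 3 libraries matched their own number best. Under the replicate block 4553 genes and the same number of the 6 (4) were called, with log2 fold changes of 3.02, 0.67, 0.47, 0.77, 0.40 and 0.41 for Slc7a11, Slc1a3, Glul, Gad2, Slc1a2 and Gad1. For Gad2 the control CV of 13.1% was near the 13.3% of counting error, while its glutamate CV of 21.5% was above the 10.3% of counting error. For Gad1 and Slc1a2 the control spread was far above counting error.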
